A study of Mus musculus with 6 samples.

Results

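The genes described here are 39 mouse genes of DNA replication and mitosis, taken by name from the 21900 protein-coding genes of the RefSeq annotation of assembly GRCm38.p6. They make up 8 groups by role: the 6 subunits of the MCM helicase, 5 genes of origin licensing and initiation, 8 of the polymerases, sliding clamp and fork, 3 of nucleotide supply, 2 E2F transcription factors, 5 cyclin, Cdk1 and proliferation marker genes, 4 mitotic kinases, and 6 genes of the spindle checkpoint, mitotic exit, chromosomes and spindle. Accessible DNA was mapped with ATAC-seq, an assay that cuts and tags open chromatin with the Tn5 transposase, in CD4 T cells of C57BL/6 mice whose peak names carry the tag WT. Naive CD4 T cells were untreated. Th17 cells were naive cells cultured for 48 h or 72 h on plate-bound anti-CD3ε at 0.25 μg/mL and anti-CD28 at 1 μg/mL, with TGF-β at 0.1 ng/mL and IL-6 at 20 ng/mL. Each condition had 2 libraries and 1 deposited peak list, so the comparisons below are between 3 lists, with no replicate check and no test. Joining overlapping peaks of the lists gave 81315 regions, of which 61425 lay in or within 10 kb of a protein-coding gene and 151 in or within 10 kb of a member.

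A naive T cell rests outside the cell cycle, and stimulation through the antigen receptor and CD28 sends it into repeated rounds of division. The replication genes load and fire origins, copy the DNA and supply deoxynucleotides, and many of them are transcribed before and during S phase under the control of E2F factors. The mitosis genes act later, and their promoters are known for CCAAT boxes, bound by NF-Y, and for the cell cycle genes homology region (CHR), the element bound by the DREAM and MuvB complexes. ATAC-seq reads whether promoter DNA is open, not whether the gene is transcribed.

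The naive list held 53259 peaks, the 48 h list 40624 and the 72 h list 53926, with median peak widths of 273, 234 and 239 bp. The number of reads behind the lists is unknown, a site without a peak in a list may still be open, and in bulk libraries the share of cells with an open site cannot be told apart from openness per cell. All 6 pan T cell markers had a region in each list, and the 6 Th17 markers had 16 regions at 4 genes in the naive list, 22 at 6 genes in the 48 h list and 36 at 6 genes in the 72 h list. Markers of other cells were partly covered: 4 of 5 B cell markers had a region in each list (Ms4a1 had none), as did 2 of 5 myeloid markers (Lyz2, Csf1r and Adgre1 had none). The B cell markers had 10, 8 and 11 regions in the naive, 48 h and 72 h lists, the myeloid markers 13, 3 and 3, and the 5 naive T cell markers 57, 23 and 29, so the last 2 sets had fewer regions in the Th17 lists. Of the 5 CD8 and NK markers, 3 had a region in the naive list, 4 in the 48 h list and 3 in the 72 h list, and of the 4 erythroid markers 2, 1 and 2. The part of other cells in the values below was not tested.

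The promoters of these genes were already under peaks in naive cells. The region at the start of the gene was present in all 3 lists for 38 of the 39 members, and the exception was E2f2, a transcription factor of the E2F family. For 6 of the members no transcription start was listed, and the region nearest to either end of the gene was taken instead. A region centred within 1 kb of the gene's own start or end was present for 38 members in the naive list (97.4%, exact 95% interval 86.5 to 99.9%), against 52.2% of all protein-coding genes. In the 48 h list the count was 37 members (94.9%, 82.7 to 99.4%), against 51.4% of all genes, and in the 72 h list it was again 37, against 55.1%. The same region was present in all 3 lists for 37 members (94.9%), against 46.9% of all genes. Among genes with any such region, 37 of 38 members (97.4%) had one in all 3 lists, against 10265 of 12784 genes (80.3%). These intervals, like the others below, are Clopper-Pearson intervals that cover counting error only. For 8 members (Mcm4, Mcm7, Pcna, Pold1, Pole, Fen1, Lig1 and Aurka) the start region also lay within 1 kb of an end of another protein-coding gene.

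The table of transcription starts held 33 members, and the others were Mcm4, Gins1, Gins2, Pole, Ccna2 and Aurkb. A listed start lay under a peak for 33 of 33 members in the naive list (89.4 to 100%), against 49.8% of 17492 genes. In the 48 h list 29 starts lay under a peak (87.9%, 71.8 to 96.6%), against 47.5% of genes, and in the 72 h list 31 did (93.9%, 79.8 to 99.3%), against 51.3%. A region over a listed start was present in all 3 lists for 32 of the 33 (97%, 84.2 to 99.9%), against 47.9% of genes. The starts not covered in the 48 h list were those of Cdc6, E2f2, Ccnb1 and Kif11, and those not covered in the 72 h list were Cdc6 and E2f2. At Ccnb1 and Kif11 the 48 h peaks ended just short of the start, running from -325 to -3 bp and from -467 to -7 bp relative to it. The 72 h peak of Ccnb1, counted as covering the start, ran from -342 to 0 bp. At Cdc6, which loads the MCM helicase at origins, the naive peak ran from -558 to 16 bp relative to the start. The Cdc6 peak ran from -546 to -226 bp in the 48 h list and from -538 to -272 bp in the 72 h list. The Cdc6 start used, chr11:98908151, lies inside the annotated gene, which begins at chr11:98907709. That first base of the gene lay under the Cdc6 peak of every list. The peaks over the starts reached from a median of -344 to 251 bp in the naive list (33 members), from -285 to 210 bp in the 48 h list (28 members) and from -264 to 262 bp in the 72 h list (30 members), measured from 1 start per gene.

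**Figure D1:**
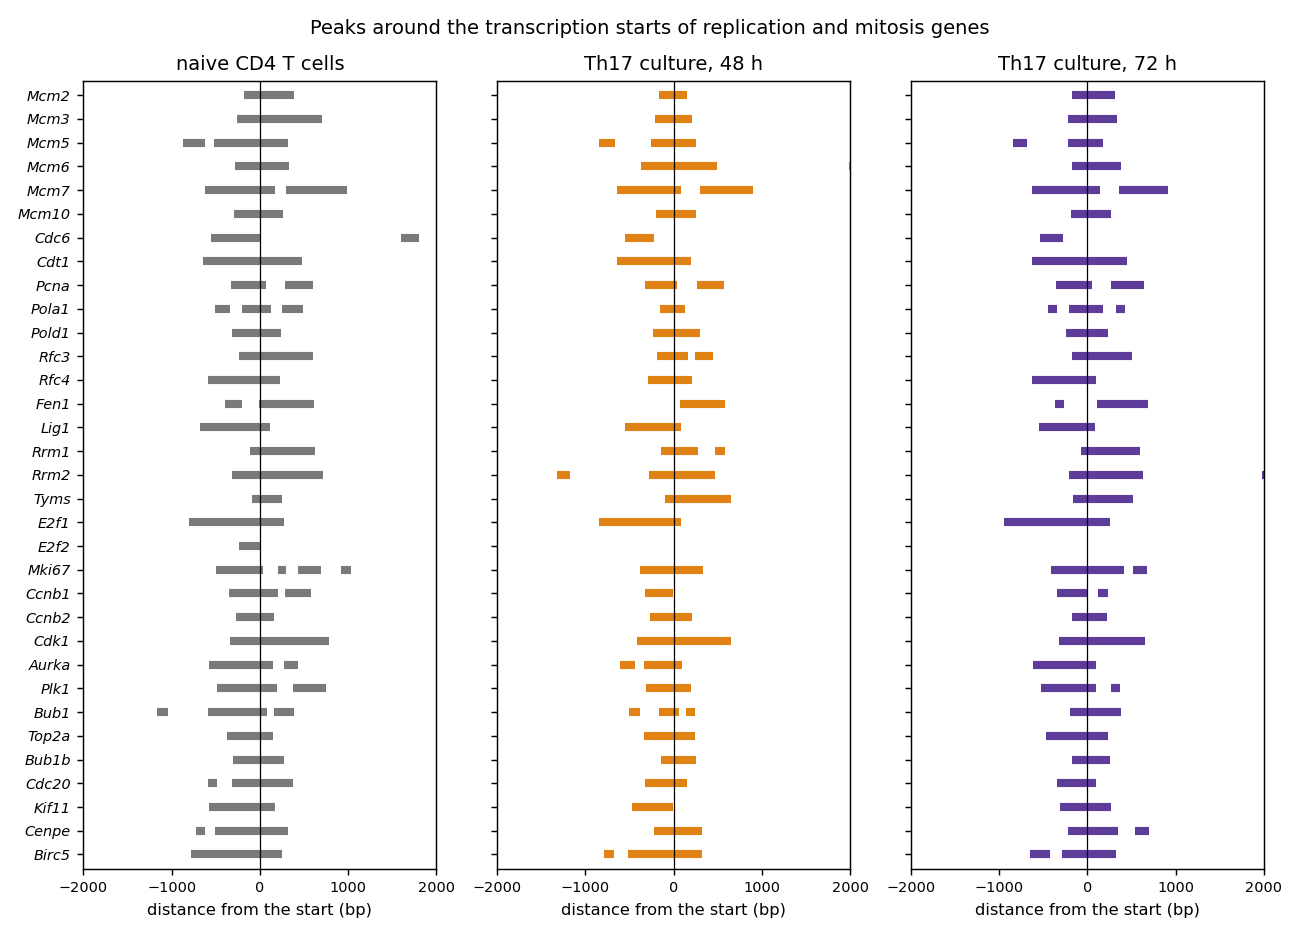
Peaks within 2 kb of the transcription start of the 33 members with a listed start, 1 row per gene and 1 panel per list (naive, 48 h, 72 h); each bar is a peak and the horizontal axis is the distance from the start in bp, downstream to the right. Bars sit over or beside the start in all 3 panels for every gene shown except E2f2, which has a bar in the naive panel only.

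Promoter sequences are shown for 6 members, each the highest scoring start region of its role group in the 72 h list, and for E2f2, which was chosen after its values were seen because its start region was in the naive list only. Each sequence is the RefSeq promoter window of 250 bases before and 50 after the start, on the gene's strand, from GRCm38.p6. Capitals mark every match, on either strand, to E2F words (TTTCCCGC, TTTGGCGC, TTTCGCGC, TTTCCCGG), CHR words (the element TTTGAA or its variant form TTCGAA) and the NF-Y box (CCAAT), and matches that overlap run together. The windows are chr1:128359656-128359955 (minus strand) for Mcm6, chr5:151651159-151651458 (minus) for Rfc3, chr2:5012742-5013041 (minus) for Mcm10, chr9:70421505-70421804 (minus) for Ccnb2, chr4:118437294-118437593 (minus) for Cdc20, chr2:172370521-172370820 (minus) for Aurka and chr4:136172024-136172323 (plus) for E2f2.
Mcm6: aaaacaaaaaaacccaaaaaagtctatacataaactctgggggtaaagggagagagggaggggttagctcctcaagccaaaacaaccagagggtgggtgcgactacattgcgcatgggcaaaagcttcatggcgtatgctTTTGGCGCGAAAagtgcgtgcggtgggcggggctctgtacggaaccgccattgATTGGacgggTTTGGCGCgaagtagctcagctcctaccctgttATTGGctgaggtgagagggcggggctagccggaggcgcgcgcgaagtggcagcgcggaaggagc
Rfc3: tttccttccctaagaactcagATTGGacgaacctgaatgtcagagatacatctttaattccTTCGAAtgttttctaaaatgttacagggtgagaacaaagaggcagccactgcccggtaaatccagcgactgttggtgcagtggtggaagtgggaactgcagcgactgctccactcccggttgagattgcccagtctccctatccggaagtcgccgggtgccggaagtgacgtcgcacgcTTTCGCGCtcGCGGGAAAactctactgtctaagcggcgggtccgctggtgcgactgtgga
Mcm10: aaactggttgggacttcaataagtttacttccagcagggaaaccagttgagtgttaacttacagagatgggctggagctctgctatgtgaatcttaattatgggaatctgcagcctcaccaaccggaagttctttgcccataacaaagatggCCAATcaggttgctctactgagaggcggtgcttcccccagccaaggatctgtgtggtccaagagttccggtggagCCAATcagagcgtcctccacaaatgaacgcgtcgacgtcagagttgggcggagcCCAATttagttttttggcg
Ccnb2: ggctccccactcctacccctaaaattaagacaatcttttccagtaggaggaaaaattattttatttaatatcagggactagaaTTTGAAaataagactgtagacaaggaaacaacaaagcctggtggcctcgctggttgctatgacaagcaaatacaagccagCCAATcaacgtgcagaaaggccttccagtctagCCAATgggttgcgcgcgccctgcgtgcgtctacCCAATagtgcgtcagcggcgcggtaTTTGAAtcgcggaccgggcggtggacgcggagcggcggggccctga
Cdc20: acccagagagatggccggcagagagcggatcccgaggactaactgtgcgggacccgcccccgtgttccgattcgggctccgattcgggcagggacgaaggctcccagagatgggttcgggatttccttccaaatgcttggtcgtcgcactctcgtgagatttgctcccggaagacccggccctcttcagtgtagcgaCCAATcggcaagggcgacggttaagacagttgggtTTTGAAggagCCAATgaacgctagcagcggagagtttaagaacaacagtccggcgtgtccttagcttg
Aurka: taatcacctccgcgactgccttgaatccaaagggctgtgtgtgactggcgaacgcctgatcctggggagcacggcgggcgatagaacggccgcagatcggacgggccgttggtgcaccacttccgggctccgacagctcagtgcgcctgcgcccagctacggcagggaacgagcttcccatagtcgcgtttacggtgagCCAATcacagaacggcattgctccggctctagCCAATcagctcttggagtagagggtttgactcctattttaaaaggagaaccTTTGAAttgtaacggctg
E2f2: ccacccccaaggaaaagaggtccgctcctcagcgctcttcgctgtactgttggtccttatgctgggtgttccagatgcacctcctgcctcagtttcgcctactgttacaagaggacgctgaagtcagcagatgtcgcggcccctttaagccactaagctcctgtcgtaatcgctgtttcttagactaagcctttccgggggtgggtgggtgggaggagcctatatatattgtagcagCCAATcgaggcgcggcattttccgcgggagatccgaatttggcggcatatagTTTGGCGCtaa

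Motif positions are counted from the start, whose first transcribed base is 1, while peak edges are distances in bp from that base. The Mcm6 window held TTTGGCGC at positions -110 and -47, the copy at -110 overlapping TTTCGCGC on the reverse strand at -106, and CCAAT on the reverse strand at -57 and -14. In the Rfc3 window TTTCGCGC stood at -10 and TTTCCCGC on the reverse strand at 1, so both E2F words lay at the start itself, with TTCGAA at -189 and CCAAT on the reverse strand at -229 further upstream. The Ccnb2 window held CCAAT at -87, -54 and -21, and TTTGAA at -167 and 5. In the Cdc20 window CCAAT stood at -53 and -8, with TTTGAA between them at -18. For Aurka, CCAAT stood at -51 and -19 and TTTGAA at 33. The Mcm10 window held CCAAT at -98, -23 and 32 and no E2F or CHR word. At E2f2, CCAAT stood at -13, under the naive peak, whose edges lay at distances of -234 and 3 bp. TTTGGCGC stood at 40, outside that peak.

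E2F words stood mainly in replication members, and CHR with CCAAT mainly in mitosis members. Over the 38 windows of the 33 members, at least 1 E2F word stood in 13 (34.2%, 19.6 to 51.4%), against 3.92% of 21263 promoters of protein-coding genes and 6.36% of the 9860 promoters at a region present in all 3 lists. A CHR word stood in 15 (39.5%, 24 to 56.6%), against 17.6% of all promoters and 12.7% of those at a region in all 3 lists. CCAAT stood in 26 (68.4%, 51.3 to 82.5%), against 38.2% and 39.3%. A CHR word and CCAAT stood together in 14 windows (36.8%, 21.8 to 54%), against 7.11% and 5.75%. Among replication members, 11 of the 20 with a window had an E2F word and 4 had CHR with CCAAT. Among mitosis members, 2 of 13 had an E2F word and 10 had CHR with CCAAT. Those 10 were Mki67, Top2a, Ccnb2, Cdk1, Aurka, Plk1, Bub1, Bub1b, Cdc20 and Kif11, and Top2a held the most matches, with 4 CHR words and 6 CCAAT boxes. The members' windows had a median GC content of 57.7% and a median CpG ratio (observed over expected) of 0.879, against 56.3% and 0.567 over all promoters and 62.3% and 0.811 over those at a region in all 3 lists. The part of base composition in the motif shares was not tested.

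**Figure D2:**
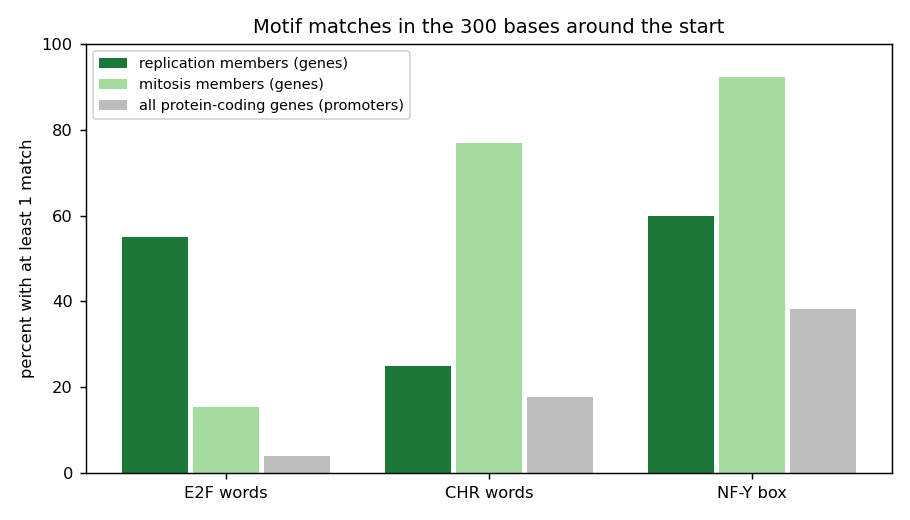
Percent with at least 1 match to the E2F words, the CHR words or the NF-Y box in the 300 bases around the start. Replication members (20 genes) and mitosis members (13 genes) are counted by gene, and all protein-coding genes by promoter (21263 promoters). A member with more than 1 promoter window counts if any of them has a match, so the bars are not on the same unit. The E2F bar is highest for replication members (11 of 20) and the CHR bar is highest for mitosis members (10 of 13), while all promoters stand at 3.92% for E2F and 17.6% for CHR.

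The MCM subunits form the ring that unwinds DNA ahead of the fork. Their start regions were in all 3 lists, and 5 of the 6 were widest in the naive list. Mcm4 had the widest start region of all members, with 1405 bp under peaks in the naive list, 1060 bp in the 48 h list and 1299 bp in the 72 h list, and it lay within 1 kb of an end of Prkdc, a DNA repair kinase gene. Mcm3 covered 969, 422 and 558 bp in the naive, 48 h and 72 h lists, and its ratio of 0.436 for 48 h over naive was the lowest of the members. Mcm6 was the exception, with 615, 862 and 551 bp. The authors' score, a whole number per peak that only the Th17 lists carry, ran from 113 (Mcm2) to 237 (Mcm4) at these starts in the 48 h list and from 120 (Mcm2) to 371 (Mcm6) in the 72 h list. For Mcm6, 35.8% of the 8380 regions over a listed start scored lower in the 48 h list, and 94.7% did in the 72 h list. For Mcm2 the shares were 34.4% in the 48 h list and 17.3% in the 72 h list, so it lay below the median of these regions in both.

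Licensing and initiation genes load the helicase and turn it on. Cdt1, the loading factor that is degraded in S phase, covered 1123, 845 and 1076 bp in the naive, 48 h and 72 h lists. Mcm10, which helps to activate the loaded helicase, covered 548, 449 and 461 bp, and this was its only region. Cdc6 covered 575, 321 and 267 bp. Of the GINS subunits, parts of the active helicase, Gins1 covered 565, 497 and 407 bp and Gins2 covered 914, 717 and 559 bp. All 5 were widest in the naive list, and Cdc6, Gins1 and Gins2 were narrowest in the 72 h list. Scores in the 48 h list ran from 137 (Cdc6 and Gins1) to 285 (Gins2), and in the 72 h list from 163 (Gins1) to 305 (Mcm10).

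Polymerase, clamp and fork genes copy the strands. Pole, the catalytic subunit of the leading strand polymerase, covered 1167, 693 and 848 bp in the naive, 48 h and 72 h lists, in a region within 1 kb of an end of Pxmp2. Pcna, the sliding clamp, covered 392, 370 and 405 bp, and Pola1, the catalytic subunit of the priming polymerase, 325, 284 and 382 bp. These start regions were narrow in every list, but both had separate regions beside them. At Pcna, chr2:132252538-132252912 had 319, 308 and 370 bp, and the flanking peaks of Pola1 are given below. Rfc3, a subunit of the clamp loader, covered 840, 546 and 674 bp. Its score of 328 was the highest of the members' starts in the 48 h list, rank 44 of the 8380 regions over a listed start, and its 407 in the 72 h list was rank 195. Rfc4, another clamp loader subunit, covered 825, 500 and 729 bp with scores of 118 in the 48 h list and 228 in the 72 h list. Pold1, of the lagging strand polymerase, covered 554, 536 and 486 bp. Its score of 209 in the 48 h list stood above 82.2% of regions over a listed start, and its 176 in the 72 h list above 38.7%. Fen1, the flap nuclease, covered 625, 511 and 584 bp and had the lowest 48 h score of the group, 92. Lig1, which seals nicks, had its region over a listed start inside the annotated gene, at chr7:13278143-13278939, with 797, 628 and 632 bp. That region lay within 1 kb of an end of Zswim9 and not of the outer ends of Lig1, and Lig1 was therefore the other member, beside E2f2, without an own end region in all 3 lists.

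Nucleotide supply genes make deoxynucleotides. Of the ribonucleotide reductase subunits, Rrm1 covered 737, 539 and 666 bp and Rrm2 covered 1025, 754 and 835 bp in the naive, 48 h and 72 h lists. Tyms, the thymidylate synthase gene, was wider in both Th17 lists, with 338, 748 and 677 bp, and its ratio of 2.21 for 48 h over naive was the highest of the members. Its scores were low, 106 in the 48 h list and 72 in the 72 h list, where 4.32% of the regions over a listed start scored lower.

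The E2F factors differed from each other. E2f1 covered 1074, 927 and 1200 bp in the naive, 48 h and 72 h lists, with scores of 188 in the 48 h list and 273 in the 72 h list. E2f2 had 1 peak of 238 bp over its upstream start in the naive list, at chr4:136172040-136172277, and none there in the Th17 lists. Just upstream of its other listed start, inside the gene, the region chr4:136180487-136180761 had 236 bp in the naive list and 226 bp in the 72 h list (score 85) but no peak in the 48 h list. A further region beside it, chr4:136180071-136180285, was in all 3 lists with 215, 108 and 171 bp. E2f2 and Rfc4 had the most regions of the members, 9 each, and E2f2 had 8 in the naive list, 4 in the 48 h list and 7 in the 72 h list.

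Cyclins A and B switch on Cdk1 at the entry into mitosis, and Mki67 encodes the Ki-67 protein that coats mitotic chromosomes. Ccnb2, a B-type cyclin, covered 429, 476 and 398 bp in the naive, 48 h and 72 h lists. Its score of 182 in the 48 h list was rank 2374 of 8380, and its 451 in the 72 h list was the highest of the members' starts and rank 69. Ccna2, the A-type cyclin, covered 814, 705 and 769 bp, in a region inside the annotated gene and 492 bp from its end, and scored 278 in the 48 h list and 386 in the 72 h list. Ccnb1 covered 562, 323 and 455 bp, and Cdk1 1128, 1065 and 982 bp. The start region of Mki67 was wider in both Th17 lists, with 634, 717 and 829 bp. This leaves out a separate region beside it, chr7:135715682-135715948. That region had 267 bp in the naive list, no peak in the 48 h list and 162 bp in the 72 h list. The Mki67 start region scored 231 in the 48 h list, above 89.2% of regions over a listed start, and 246 in the 72 h list, above 67.1%.

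Among the mitotic kinases, Aurka, which acts at the spindle poles, covered 730, 611 and 716 bp in the naive, 48 h and 72 h lists. Aurkb, the kinase of the chromosomal passenger complex, covered 282, 324 and 514 bp and so was widest in the 72 h list. Plk1, which acts throughout mitosis, covered 679, 511 and 623 bp and had the lowest score of the members' starts in the 48 h list, 62, and a score of 92 in the 72 h list. It stood above 8.56% of regions over a listed start in each. Bub1, a checkpoint kinase at the kinetochore, covered 889, 447 and 578 bp.

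The checkpoint, exit, chromosome and spindle genes had start regions in all 3 lists. Top2a, the topoisomerase that untangles sister chromatids, was wider in both Th17 lists, with 522, 573 and 694 bp in the naive, 48 h and 72 h lists, and scored 147 in the 48 h list and 324 in the 72 h list. The other members of the group were widest in the naive list. Cdc20, the activator of the anaphase promoting complex, covered 688, 468 and 445 bp, Cenpe, a kinetochore motor, 826, 542 and 568 bp, and Kif11, the motor that pushes spindle poles apart, 750, 461 and 576 bp. Birc5, a member of the passenger complex, covered 1034, 945 and 840 bp, and Bub1b, a checkpoint protein, 579, 400 and 425 bp.

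**Figure D3:**
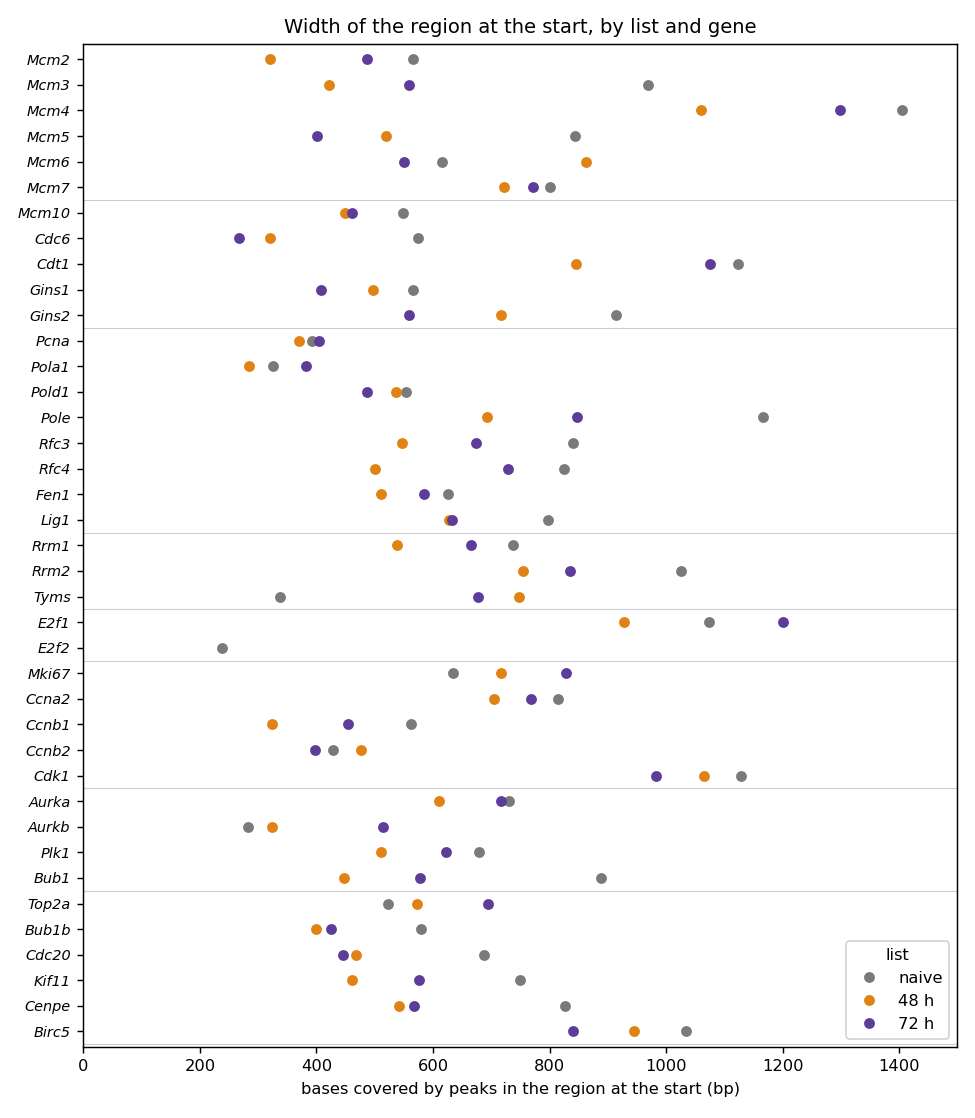
Bases under peaks in the start region of each of the 39 members (horizontal axis, bp) in the naive, 48 h and 72 h lists, with grey lines between role groups. The 48 h point lies to the left of the naive point for 32 of the 38 members present in both lists, and E2f2 has a naive point only.

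Across the start regions, the ratio of 48 h over naive width had a median of 0.786, with 32 narrower and 6 wider, and that of 72 h over naive a median of 0.874, with 31 narrower and 7 wider. For 72 h over 48 h the median was 1.13, with 27 wider and 11 narrower. The ratios of all genes lay close to these. Over regions at a listed start in all 3 lists, the median width ratio for 48 h over naive was 0.77 for the 32 members and 0.782 for 8380 genes, that for 72 h over naive was 0.874 and 0.901, and that for 72 h over 48 h was 1.13 and 1.15. Regions near a gene end, here and below, were centred within 1 kb of an end of any protein-coding gene. At members, 15 of 58 were narrower by at least 1.5-fold at 48 h than in naive cells (25.9%), against 32.4% at all genes. Only 1 was wider by at least 1.5-fold (1.72%), against 2.71%. At 72 h, 14 of 63 were narrower than in naive cells (22.2%), against 16.5%, and 5 were wider (7.94%), against 5.88%. Between 72 h and 48 h, 1 of 58 was narrower (1.72%), against 2.85%, and 9 were wider (15.5%), against 20.8%. These shares lay near those of all regions, and peak width also depends on read depth and calling, which are unknown.

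Scores at the starts ran from 62 to 328 (median 154) in the 48 h list and from 72 to 451 (median 251) in the 72 h list. In the 48 h list the median of the 32 members with a region over a listed start was 154, against 141 for the 8380 genes, and 21 of the 32 scored above 141. In the 72 h list the medians were 251 for the members and 202 for all genes, and 24 of the 32 scored above 202. No source used here states the scale of the score, so between lists only which number was larger and the median difference are given. Of the members' regions near a gene end in both lists, 55 of 58 (94.8%) had the larger number in the 72 h list, against 85.7% of all such regions. The members with the smaller number in the 72 h list at their start were Tyms and Pold1.

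**Figure D4:**
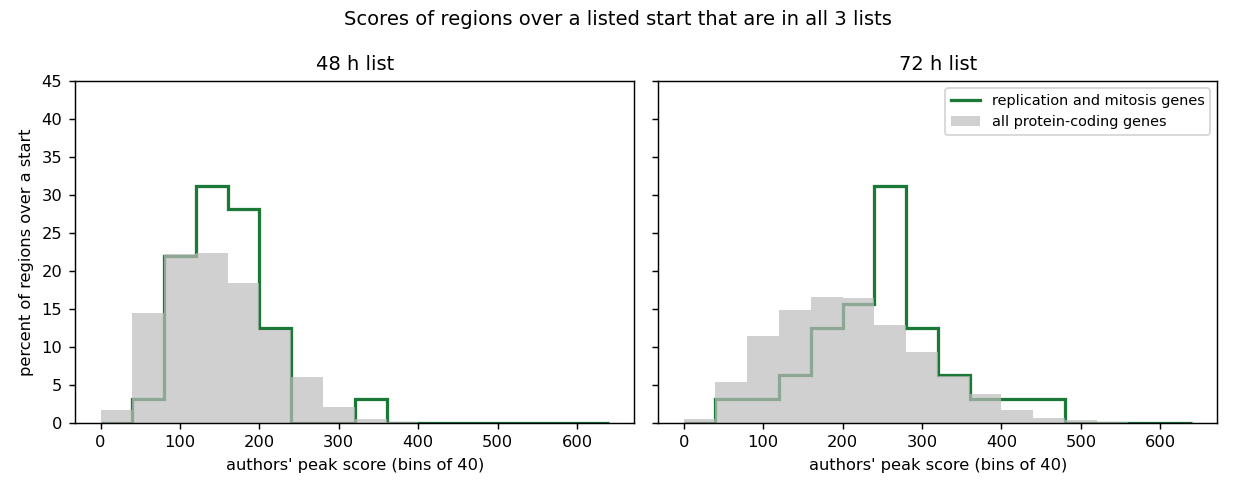
Authors' score of regions over a listed start that were in all 3 lists, in bins of 40 (horizontal axis), as the percent of the 32 members (line) and of the 8380 genes (filled) in the 48 h list (left) and the 72 h list (right). The members' medians are 154 in the 48 h list and 251 in the 72 h list, against 141 and 202 for all genes.

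Beside the start region, 14 members had 20 further regions within 1 kb of their own start or end, and 4 of these 20 were in all 3 lists. Of the rest, 5 were in the naive list only, 5 in the naive and 72 h lists, 3 in the 72 h list only, 2 in the 48 h list only and 1 in the naive and 48 h lists. Just downstream of the Ccnb1 start, the naive list had a peak of 294 bp at chr13:100785903-100786196 that the Th17 lists lacked. Plk1 had a naive peak of 371 bp at chr7:122159814-122160184 and, beside it, a 72 h peak of 100 bp (score 43). At Pola1, flanking peaks of 241 and 176 bp in the naive list and of 100 bp each in the 72 h list had no counterpart in the 48 h list. The 3 that were in the 48 h list and not in the 72 h list were all at the far end of Rfc4, with 48 h widths between 106 and 235 bp. All 3 also lay within 1 kb of an end of the neighbouring gene Eif4a2.

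Few of the members' regions near an end of any protein-coding gene were gained relative to naive cells. Of the 83 such regions, 58 lay near a member's own end and the others near a neighbour's end only. The 2 that were in both Th17 lists and not in the naive list lay near ends of Podxl2 and Lct. Some naive-only regions also lay near neighbours' ends, such as Rara beside Cdc6 and Aprt beside Cdt1. Gained means here that the later list of a pair held the region and the earlier list did not, and lost means the reverse. Near gene ends, 4 of 62 regions of the 48 h list were gained relative to the naive list (6.45%, 1.79 to 15.7%), against 12.2% at all genes, and 18 of 76 naive regions were lost (23.7%, 14.7 to 34.8%), against 24.5%. At 72 h, 5 of 68 were gained relative to the naive list (7.35%, 2.43 to 16.3%), against 18.4%, and 13 of 76 were lost (17.1%, 9.43 to 27.5%), against 20.2%. The interval of the gained share at 72 h lay below the share at all genes, and the other 3 intervals held it. For 72 h relative to 48 h, 10 of 68 were gained (14.7%, 7.28 to 25.4%), against 17.7%, and 4 of 62 were lost (6.45%, 1.79 to 15.7%), against 6.45%.

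Away from gene ends the members had 68 regions, of which 17 were in all 3 lists (25%, 15.3 to 37%), against 17.7% at all genes. At 48 h, 10 of 27 regions were gained relative to the naive list (37%, 19.4 to 57.6%), against 48.7%, and 29 of 46 were lost (63%, 47.5 to 76.8%), against 65.8%. At 72 h, 19 of 48 were gained (39.6%, 25.8 to 54.7%), against 58.1%, and 17 of 46 were lost (37%, 23.2 to 52.5%), against 58.3%. Both 72 h shares relative to naive had intervals below the shares at all genes. For 72 h relative to 48 h, 24 of 48 were gained (50%, 35.2 to 64.8%), against 46.3%, and 3 of 27 were lost (11.1%, 2.35 to 29.2%), against 20.1%. Of the 46 naive regions, 12 were absent from the 48 h list and present in the 72 h list (26.1%, 14.3 to 41.1%), against 12.2% at all genes. The 72 h list had 53926 peaks against 40624 in the 48 h list, and the part of list length in this was not tested. Regions at the same gene are not independent, which these intervals leave out.

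**Figure D5:**
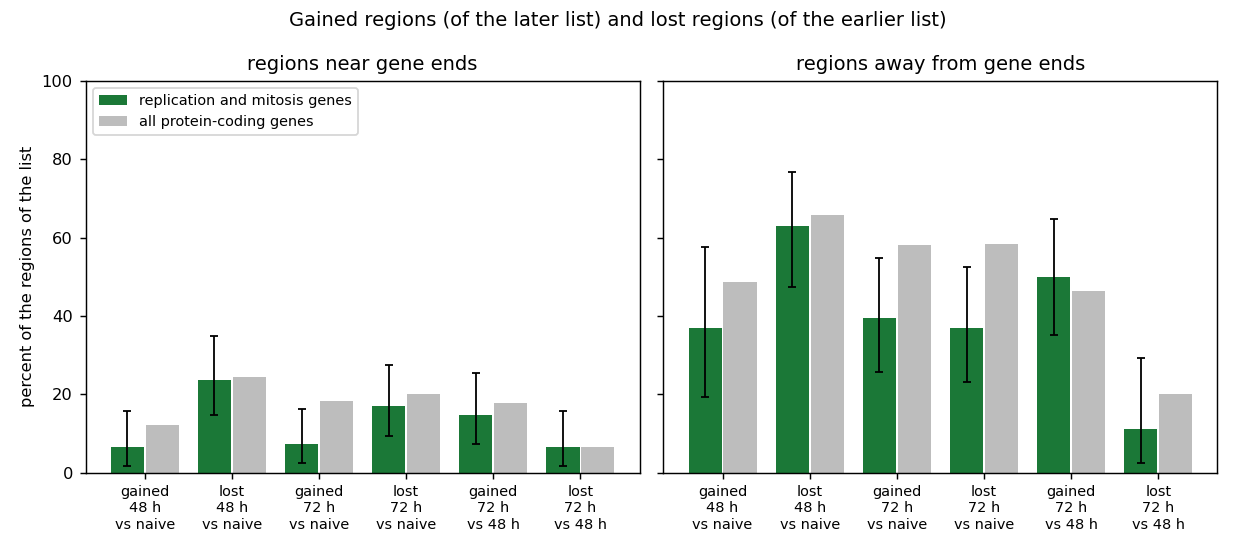
Percent of regions gained (of the later list) and lost (of the earlier list) for each pair of lists, near gene ends (left) and away from them (right), at the replication and mitosis genes and at all protein-coding genes; error bars are exact 95% intervals of the members' shares. At the members 7.35% of 72 h regions near gene ends are gained relative to naive, and 18.4% at all genes; away from gene ends the shares are 39.6% and 58.1%.

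The widest regions away from gene ends that were present in all 3 lists lay partly in neighbouring genes. The widest was 9560 bp from Pcna and inside Cds2, at chr2:132262740-132263546, with 807, 691 and 768 bp in the naive, 48 h and 72 h lists and scores of 191 in the 48 h list and 371 in the 72 h list. On the other side of Pcna, inside Tmem230, chr2:132247517-132248146 covered 463, 446 and 588 bp. Near Cdc20, inside Elovl1, chr4:118427718-118428455 covered 615, 608 and 656 bp. Inside Lig1, chr7:13302724-13303320 covered 549, 290 and 454 bp and scored 156 in the 48 h list and 284 in the 72 h list. Near Aurkb, chr11:69040076-69040659 covered 304, 538 and 553 bp, and inside E2f2 chr4:136177631-136178171 covered 265, 389 and 337 bp, so these last regions were wider in both Th17 lists. Which gene a region acts on was not tested.

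Away from gene ends, 7 regions were in both Th17 lists and not in the naive list. They had median widths of 153 bp in the 48 h list and 224 bp in the 72 h list, against 216 and 254 bp for such regions at all genes, and median scores of 42 and 55, against 65 and 91. The highest 72 h score among them was 98, at chr16:23136551-23136827, 8821 bp from Rfc4, where the 48 h peak of 100 bp scored 30, the lowest score in that list. Inside E2f2, chr4:136174788-136175110 covered 137 bp in the 48 h list and 323 bp in the 72 h list, with scores of 32 and 76. Inside Kif11, chr19:37391950-37392190 covered 204 bp in the 48 h list and 224 bp in the 72 h list, with scores of 79 and 55. The others named by the same rule were near Cdc6, Pole and Aurkb, with 72 h scores of 66, 53 and 45. The region near Cdc6 lay inside Rara, 9309 bp from Cdc6, and the region near Pole lay inside Pxmp2. The widest naive-only region was chr2:118642454-118643366, 862 bp from Bub1b, with 913 bp. The next were chr16:23135586-23135908 near Rfc4 (323 bp) and chr4:136189917-136190234 inside E2f2 (318 bp), followed by regions of 286 bp near Kif11, 261 bp near Cdt1 and 251 bp near Aurkb. Over all regions away from gene ends, Cdc6, Rfc4, E2f2, Aurkb and Kif11 had regions of both kinds.

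A further 128 genes of replication and mitosis, listed by role, were also mostly under peaks in all 3 lists. An own end region in all 3 lists was present for 119 of them (93%), against 46.9% of all protein-coding genes. All 17 regulators, which include the pocket protein gene Rb1 and the mitotic activators Foxm1 and Mybl2, and all 23 spindle and cytokinesis genes had one. The genes without one were Orc1, Orc4, Rfc1, Tk1, Pttg1, Sgo1, Sgo2a, Rad21 and Stag1. The 517 regions at the 128 genes were set against the shares at all genes in the same way. Near gene ends, 10 of 184 regions of the 48 h list were gained relative to naive (5.43%), against 12.2% at all genes, and 36 of 210 naive regions were lost (17.1%), against 24.5%. At 72 h, 22 of 197 were gained (11.2%), against 18.4%, and 35 of 210 were lost (16.7%), against 20.2%. Away from gene ends the shares lay near those of all genes, with 55 of 107 gained at 48 h (51.4%), against 48.7%, and 113 of 165 lost (68.5%), against 65.8%. At 72 h, 99 of 163 were gained away from gene ends (60.7%), against 58.1%, and 61.2% of the 165 naive regions were lost, against 58.3%. Prim2, the large primase subunit gene, had the largest excess of gained over lost regions for 72 h relative to naive, with 4 regions in the naive list, 3 in the 48 h list and 9 in the 72 h list. Kif23, a motor of cytokinesis, had the largest excess of lost regions, with 9, 3 and 3 regions. After Prim2 came Bub3, Kif2c and Tfdp1 with 3 more gained than lost each and 10 genes tied at 2, of which Cdc25c is the first by symbol. After Kif23 came Rb1 and Rfc1 with 4 more lost than gained each and 5 genes tied at 3, of which Cdc7 and Chaf1b are the first by symbol.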

How the data were processed

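The submitters' processing notes name the aligner Bowtie2 2.3.4.1, the tool set SAMtools 1.9, the peak caller MACS2 2.2.6 and also deepTools, with build GRCm38/mm10. No source used here gives the calling threshold, duplicate handling, Tn5 shift or whether both libraries of a condition were pooled. The deposited lists give each peak's chromosome, start and end, and the deposited 48 h and 72 h lists also give the authors' score, whose scale no header states and which was used to describe and rank peaks within a list; between the lists only which number was larger, and the median difference, were taken. An empty naive entry (1 line) was dropped. Peak starts were read as counted from 0 and are printed counted from 1. Running numbers in the peak names skip 4446 numbers in the naive list, 4606 in the 48 h list and 4321 in the 72 h list.

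Peaks of the 3 lists were merged at an overlap of 1 bp, and a region counted for every protein-coding gene it overlapped within 10 kb of the body. It was near a gene end when its centre was at most 1 kb from the start or end of such a gene. The start region is the region over a listed transcription start, or nearest to it or, for the 6 members without one, nearest to a gene end; its width is the sum of a list's peaks in it and its score the highest of them. Because each condition has 1 list, there is no test and no p-value; shares have exact intervals, and read depth is unknown. Promoter windows came from RefSeq (GRCm38.p6). Members and lists were chosen with earlier results of these data known. All members were eligible to be named; of the other genes, the 5 with the largest excess of gained and the 5 with the largest excess of lost regions from naive to 72 h; and of regions away from gene ends, the 6 with the highest 72 h score in both Th17 lists only, the 6 widest in the naive list only and the 6 widest in all 3. No member had a start region that was missing from the naive list and present at a Th17 time. The merging and motif steps were tested on simulated data. Alternatives covered the distances, the merging, filters on width and score, the gene assignment and the motif strand and window. Python 3.11.15, scipy 1.17.1, numpy 2.4.6 and matplotlib 3.10.9 were used.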

Additional observations from a re-analysis of the deposited data

How the results depend on the processing

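Of 156 alternative values of 22 results, 97 stayed within 1.5-fold or within the interval and 59 moved, nearly all of them small counts of gained and lost regions. The members counted with an own end region, the width ratios and the median score difference near gene ends kept within that range in every setting tried. The median score difference was 63.5 (72 h minus 48 h, scale not stated). Over all such regions it was 48, and 52 over those in all 3 lists. Merging only at an overlap of 50% of the shorter peak also kept the counts within that range. The members' gained share relative to naive stayed below that of all genes in 9 of 9 settings, that of the report included, near gene ends and away from them, at 48 h and at 72 h. The lost share relative to naive stayed below in 6 of 9 near gene ends at 48 h, 8 of 9 away at 48 h, 7 of 9 near at 72 h and 9 of 9 away at 72 h. For 72 h relative to 48 h, the gained share away from gene ends lay above that of all genes (50% against 46.3%). Only a flank of 50 kb put it below (44.4% against 46.1%). The lost share away lay below (11.1% against 20.1%). With each width or score filter it lay above, as with peaks at or above the median width (36.4% against 20.2%). Near gene ends both shares of this pair lay below in some settings and above in others.

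In the order gained near, lost near, gained away and lost away from gene ends, the counts for 48 h relative to naive were 4, 18, 10 and 29, those for 72 h relative to naive 5, 13, 19 and 17, and those for 72 h relative to 48 h 10, 4, 24 and 3. With a flank of 2 kb the first pair gave 2, 11, 4 and 17, the next 3, 7, 6 and 11, and 72 h relative to 48 h gave 10 gained away. With a flank of 50 kb they were 7, 32, 36 and 103, then 16, 23, 62 and 80, and for 72 h relative to 48 h 23 gained near, 67 gained away and 18 lost away. With peaks at or above the median width they were 1, 7, 3 and 6, then 2, 3, 8 and 8, and for 72 h relative to 48 h 6 gained near, 1 lost near and 7 gained away. With Th17 peaks at or above the median score of their list, and naive peaks at or above the median width because that list has no score, they were 1, 7, 4 and 8, then 3, 6, 7 and 6, and for 72 h relative to 48 h 4 gained near, 1 lost near and 8 gained away. With the widest 40624 peaks of each list, 48 h relative to naive had 7 gained near and 17 lost away, and 72 h relative to 48 h had 2 gained near, 15 gained away and 10 lost away. With each region given only to the nearest gene, 48 h relative to naive had 2 gained near and 10 lost near, and 72 h relative to naive had 3 gained near, 7 lost near and 12 gained away. With near meaning 500 bp the gained near counts were 2, 2 and 6 for the 3 pairs, and with 2 kb 72 h relative to 48 h had 1 lost away. Without Rfc4, which tied with E2f2 for the most regions, 48 h relative to naive had 2 gained near and 72 h relative to 48 h had 1 lost near. Which of gained and lost was larger turned in some settings. Away from gene ends for 72 h relative to naive, lost exceeded gained with either other flank, with the nearest gene (12 gained, 16 lost) and with the widest 40624 peaks (13 gained, 14 lost), and they were equal at 8 with peaks at or above the median width. Near gene ends for 72 h relative to 48 h, the widest 40624 peaks gave 2 gained and 4 lost. On the given strand alone CCAAT stood in 44.7% of the members' promoters, against 21.6% of all promoters. Filters keep fewer peaks and flanks take in fewer or more regions by construction; other causes were not tested.

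No paired analysis was possible because each condition has 1 list and no column per replicate, and for the same reason no replicate was left out in turn. Depth is unknown, so closed sites and sites with too few reads cannot be told apart.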
